A study of Bos indicus and Bos taurus with 17 samples.

Results

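The calgranulins and the other S100 genes measured in milk epithelial cells are described here across breed and day of lactation. The genes were chosen by name: the calgranulins S100A8, S100A9 and S100A12, the widely expressed S100A4, S100A6, S100A10 and S100A11, and S100A1, S100A2 and S100A14, which are known from muscle or epithelium. Of these 10 genes, 9 were found among the 21631 distinct gene names in the values, and S100A6 had no entry of that name. Of 2 entries named S100A9, the one with the higher mean over the groups was taken.

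RNA was sequenced from mammary epithelial cells taken from milk with magnetic beads that carried an antibody against cytokeratin 18 (KRT18), so KRT18 was itself used for the capture. The Kashmiri breed, local cattle of the Kashmir region, was sampled on days 15 (D15), 90 (D90) and 250 (D250) in milk, with 3 samples per day. Jersey cattle, an improved dairy breed, were sampled on the same days, with 3, 2 and 3 samples. No cow was given a treatment, the labels put every sample in lactation 2 or 3, unevenly over the groups, and the study describes all cows as healthy and kept on 1 farm. All samples of D15 were taken in March, those of D90 in July and those of D250 in December, so day in milk and month cannot be told apart.

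S100 proteins are small calcium-binding proteins that mostly work as dimers. S100A8 and S100A9 pair to form calprotectin, which is abundant in the cytoplasm of neutrophils and monocytes, binds zinc and manganese, and is released as an antimicrobial and alarm protein, and S100A12 is a related neutrophil protein that is a ligand of the receptor AGER. Neutrophils and macrophages are normal inhabitants of milk and become far more numerous when the udder is infected, and calprotectin in milk is known as a mark of that. S100A10 and S100A11 bind annexins at membranes, S100A4 binds non-muscle myosin and is common in motile cells and leukocytes, S100A2 and S100A14 are known from stratified and glandular epithelium, and S100A1 from heart and skeletal muscle.

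The levels are FPKM from the authors' Cuffdiff run, that is sequenced fragments divided by transcript length and by the mapped reads, and each of the 6 breed and day groups has 1 such value. Values per sample were not analysed here, the number of reads behind a value is unknown, and therefore no SD, interval or test between groups is given and a single cow could carry a group value. A fold is the plain ratio of 2 group values. A log2 ratio was computed with 1 FPKM added to each group, which understates the difference of low genes, and a gene was past the limit when its log2 ratio was 2 or more in size and its level reached 1 FPKM in either group. Beside each count of S100 genes stands the share of all genes that passed the same limit in the same direction. In bulk samples such as these, fewer cells of a type and less RNA per cell cannot be told apart.

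The values of the whole series bear on the S100 genes in 3 ways. The FPKM of all entries summed to between 533249 and 1.02315e+06 per group, so the groups were not on a common total, and in most comparisons the median over all genes shifted by more than 0.1 (log2) on rescaling, at most from -0.04 to 0.76 (Kashmiri, D250 over D15, rescaled to the sum of all entries but the milk protein genes). Of 7 milk protein genes, 5 had an entry, and these summed to between 1817 and 13031 FPKM per group. CSN2 and PAEP were listed at 0 in every group but Jersey at D90, and LALBA at D15 in both breeds. The paper, by contrast, reports CSN2 and LALBA among its most highly expressed genes in both breeds on every day. Those zeros thus conflict with the paper's own levels. In the values used here, leaving out the milk protein genes took away little, and this rescaling was close to one by the total. Some values listed at 0 could be failed estimates, since GAPDH was listed at 0 in 4 groups and below 0.1 FPKM in the others, and 7.88% of the 457 names above 500 FPKM in 1 group were listed at 0 in another. None of the 9 S100 genes was listed at 0. Markers of epithelium and of leukocytes were both present. All 11 epithelial markers were found and summed to between 101 FPKM (Jersey, D90) and 5940.5 FPKM (Kashmiri, D15). KRT18 itself stood at 1.59 and 51.3 FPKM in these groups. Markers of macrophages, neutrophils and T cells were present in every group, and in the Jersey group of D90 the macrophage markers summed to 2145 FPKM. The paper checked captured cells of D90 by qPCR. It found KRT18 and CSN2 higher, and LSP1, HBA and CD18 lower, than in milk somatic cells.

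The 3 calgranulins had the highest log2 ratios of Jersey over Kashmiri among the 9 genes on each day. S100A8 stood at 36.4, 74.3 and 106 FPKM on D15, D90 and D250 in the Kashmiri breed and at 1652, 1276 and 3034 FPKM on the same days in Jersey cattle. S100A9, its partner in calprotectin, stood at 26.2, 65.7 and 107 FPKM in Kashmiri and at 1001, 994 and 2965 FPKM in Jersey cattle. S100A12 stood at 39.0, 240.4 and 294 FPKM in Kashmiri and at 1615, 2267 and 4014 FPKM in Jersey cattle. For each of the 3 genes, the lowest Jersey value was above the highest Kashmiri value, and the groups of the breeds did not overlap. The share of all genes without such overlap was not counted, here or for the genes below, so how unusual it is remains unknown.

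The highest group value was 83.3 times the lowest for S100A8, 113 times for S100A9 and 103 times for S100A12, each time Jersey at D250 over Kashmiri at D15. Within a group S100A8 and S100A9 kept close together. The quotient of S100A8 over S100A9, which does not depend on the scaling of a group, ranged only from 0.991 (Kashmiri, D250) to 1.65 (Jersey, D15). S100A12 over S100A8 ranged more widely, from 0.977 (Jersey, D15) to 3.24 (Kashmiri, D90), and S100A12 over S100A9 from 1.35 (Jersey, D250) to 3.66 (Kashmiri, D90). S100A12 was the highest calgranulin in 5 of the 6 groups, with S100A8 slightly above it in Jersey at D15. The other entry named S100A9 was lower throughout, at 0.582, 0.637 and 1.96 FPKM in Kashmiri and 22.8, 15.2 and 97.4 FPKM in Jersey cattle, and it too was higher in each Jersey group than in any Kashmiri group.

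**Figure D1:**
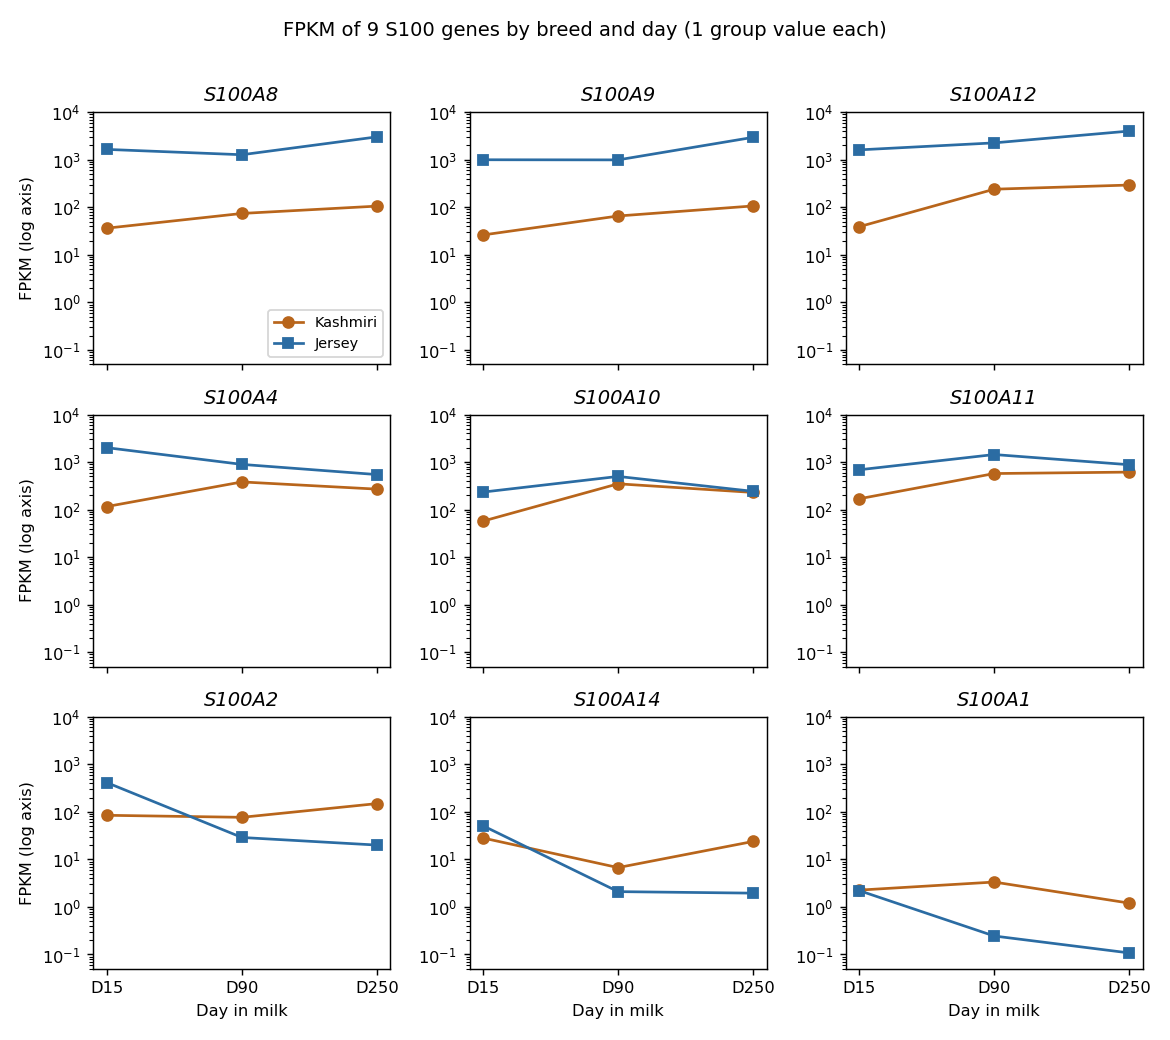
FPKM of each of the 9 S100 genes on a log axis, with D15, D90 and D250 in order on the horizontal axis at even spacing, circles for Kashmiri and squares for Jersey, and 1 group value per point with no error bar. The Jersey line lies far above the Kashmiri line for S100A8, S100A9 and S100A12 on every day, meets it for S100A10 at D250 and lies below it for S100A2, S100A14 and S100A1 at D90 and D250.

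S100A4, S100A10 and S100A11, the widely expressed genes, were at 57.2 FPKM or more in every group. S100A4 stood at 116, 382 and 269 FPKM on D15, D90 and D250 in the Kashmiri breed and at 2007, 893 and 545 FPKM in Jersey cattle. It was higher in each Jersey group than in any Kashmiri group, but its order over the days was different, since Jersey D15 held its highest value and Kashmiri D15 its lowest. S100A11 stood at 169, 573 and 615 FPKM in Kashmiri and at 688, 1439.6 and 879 FPKM in Jersey cattle, again without overlap of the breeds. S100A10, which forms a complex with ANXA2 on the inner face of the plasma membrane, stood at 57.2, 349 and 229.5 FPKM in Kashmiri and at 233, 499 and 242 FPKM in Jersey cattle, and the ranges of the breeds overlapped. S100A10 and S100A11 were highest at D90 in Jersey cattle, and S100A10 also in Kashmiri cattle.

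S100A2 and S100A14, the epithelial genes, had another order. S100A2 stood at 84.7, 76.8 and 149 FPKM in the Kashmiri breed and at 412, 28.9 and 20.0 FPKM in Jersey cattle, so Jersey held both its highest value and its lowest. S100A14 stood at 28.2, 6.73 and 23.9 FPKM in Kashmiri and at 51.0, 2.10 and 1.95 FPKM in Jersey cattle, with the same extremes. S100A1 was low in every group, at 2.26, 3.34 and 1.20 FPKM in Kashmiri and 2.21, 0.245 and 0.108 FPKM in Jersey cattle, and its Jersey values at D90 and D250 were under the limit of 1 FPKM.

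Together the 9 genes summed to 559, 1771 and 1795 FPKM on D15, D90 and D250 in Kashmiri cattle, between 0.0546% and 0.337% of all FPKM of the group. In Jersey cattle they summed to 7660.4, 7399.6 and 11702 FPKM, between 1.00% and 1.30% of all FPKM. The make-up of this sum differed by breed and shifted with the day. The calgranulins made up 18.2%, 21.5% and 28.2% of it in the Kashmiri breed and 55.7%, 61.3% and 85.6% in Jersey cattle. Their joint share was thus higher at each later day in both breeds, but not that of each gene. From D15 to D90 the share of S100A12 went from 6.99% to 13.6% in Kashmiri and from 21.1% to 30.6% in Jersey cattle. That of S100A8 fell, from 6.51% to 4.19% and from 21.6% to 17.2%. The share of S100A9 went from 4.69% to 3.71% in Kashmiri and from 13.1% to 13.4% in Jersey cattle.

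**Figure D2:**
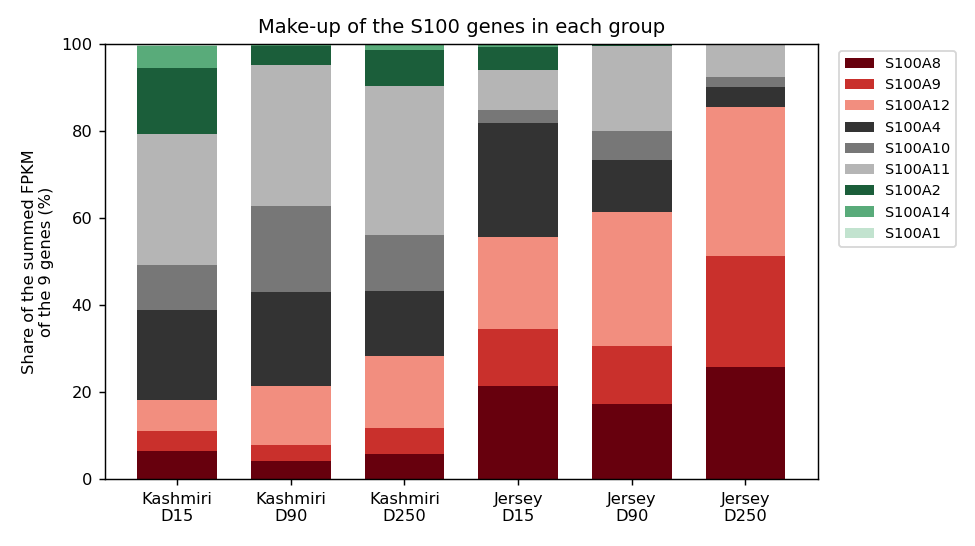
Share (%) of each of the 9 S100 genes in their summed FPKM, 1 stacked bar for each group of breed and day, with the calgranulins in reds, the widely expressed genes in greys and the epithelial and muscle genes in greens. The red part reaches from 18.2% in Kashmiri at D15 to 85.6% in Jersey at D250, while the green part is visible mainly in Kashmiri and in Jersey at D15.

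The comparison of the breeds on the same day asks how the improved and the local breed differ at a given point of lactation. At D15, S100A8 was 45.4-fold, S100A9 38.2-fold and S100A12 41.4-fold higher in Jersey than in Kashmiri cattle. S100A4 was 17.3-fold higher, and S100A10, S100A11 and S100A2 were 4.08-fold, 4.08-fold and 4.86-fold higher. With these 7, most of the S100 genes were past the limit in the same direction, against 6.45% of the 11202 genes compared, and 0 were past it in the other direction, against 2.12%. S100A10 and S100A11 were just inside the limit, with log2 ratios of 2.01 and 2.02, and both fell outside it when the groups were rescaled by their upper quartile. S100A14 was 1.81-fold higher in Jersey, short of the limit, and S100A1 was at about the same level in both breeds, 2.21 against 2.26 FPKM. As a share of the summed S100 FPKM, S100A10, S100A11 and S100A2 were lower in Jersey, where the calgranulins and S100A4 took a larger part.

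At D90 only the calgranulins were past the limit. S100A8 was 17.2-fold, S100A9 15.1-fold and S100A12 9.43-fold higher in Jersey cattle, 3 genes of 9 where 6.58% of all genes were past the limit in that direction. S100A4 was 2.34-fold, S100A11 2.51-fold and S100A10 1.43-fold higher. S100A2, S100A14 and S100A1 lay on the other side: S100A2 was 2.66-fold, S100A14 3.20-fold and S100A1 13.6-fold lower in Jersey, with log2 ratios of -1.38, -1.32 and -1.80, and 0 of the 9 were past the limit as lower, against 5.17% of all genes. S100A1 passed the limit as lower with a pseudocount of 0.1 FPKM, which weighs such low values more.

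At D250 the calgranulins and the epithelial genes stood furthest apart. S100A8 was 28.6-fold, S100A9 27.8-fold and S100A12 13.7-fold higher in Jersey cattle, again 3 of 9, where 10.9% of all genes were past the limit in that direction. S100A2 was 7.46-fold lower and S100A14 12.2-fold lower in Jersey, 2 of 9 past the limit in the direction in which 1.37% of all genes were. S100A4 was 2.02-fold higher. The ratios of S100A11 (1.43-fold) and S100A10 (1.05-fold) were small and turned below 1 when the groups were rescaled by the upper quartile or to the sum of all entries but the milk protein genes.

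**Figure D3:**
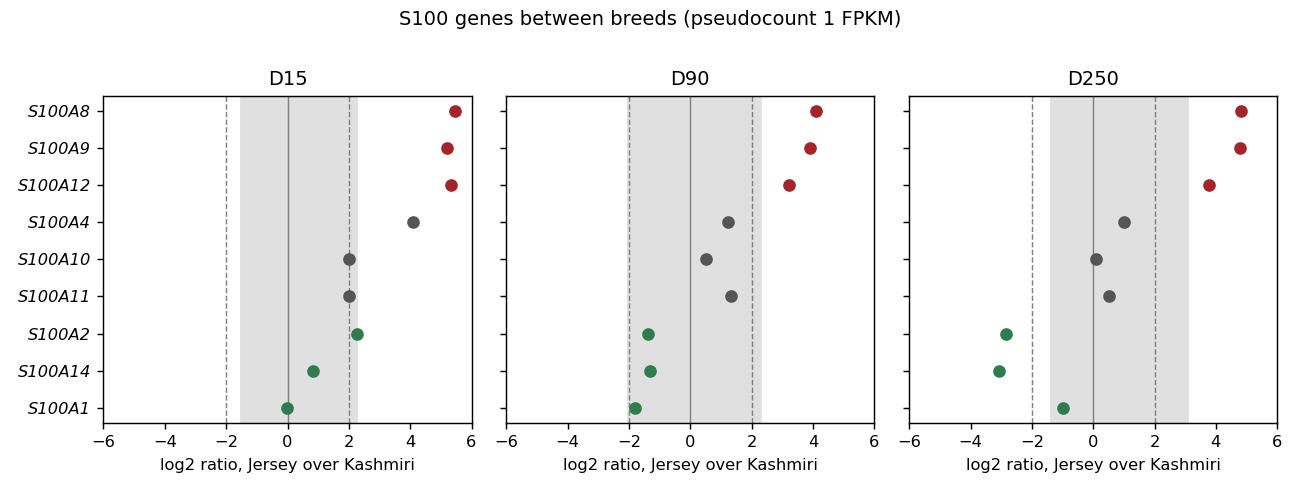
Log2 ratio of Jersey over Kashmiri for the 9 S100 genes at D15, D90 and D250, with a pseudocount of 1 FPKM, 1 point per gene, dashed lines at the limit of 2 and a grey band from the 5th to the 95th percentile of all genes compared. The 3 calgranulins lie to the right of the band on each day, at 3.23 or above, and S100A2 and S100A14 lie to its left at D250, at -2.84 and -3.07.

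For the 3 calgranulins, the medians of the breed ratios on D15, D90 and D250 were 5.33, 3.90 and 4.78 on the log2 scale, and for the 6 other S100 genes they were 2.01, -0.40 and -0.46. The medians over all genes compared were -0.13, -0.03 and -0.10. Thus the calgranulins were higher in Jersey on each day under both rescalings, whereas the other S100 genes were mostly higher in Jersey at D15 and split at D90 and D250, with S100A4, S100A10 and S100A11 at or above the Kashmiri level (S100A10 and S100A11 at D250 only before rescaling) and S100A2, S100A14 and S100A1 below it.

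Within the Kashmiri breed, the calgranulins were higher at each later day. From D15 to D90, S100A12 was 6.16-fold higher and S100A10 6.09-fold higher, the 2 genes past the limit, against 2.34% of 11297 genes, and 0 were past it as lower, against 5.16%. Rescaled to the sum of all entries but the milk protein genes, S100A4 and S100A11 passed as well, which made 4. S100A8, S100A9, S100A4 and S100A11 were between 2.04-fold (S100A8) and 3.40-fold (S100A11) higher. S100A14 went the other way and was 4.19-fold lower, with a log2 ratio of -1.92 just short of the limit. S100A2 hardly differed, with a log2 ratio of -0.14 that changed sign under both rescalings.

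From D90 to D250 in Kashmiri cattle, 0 of the 9 genes were past the limit in either direction, against 0.859% of all genes as higher and 1.12% as lower. S100A14 was 3.55-fold and S100A2 1.94-fold higher, S100A9 1.63-fold and S100A8 1.43-fold. S100A4 and S100A10 were 1.42-fold and 1.52-fold lower, a direction that turned when the groups were rescaled to the sum of all entries but the milk protein genes. Over the whole span from D15 to D250, S100A12 was 7.53-fold higher, the 1 gene past the limit, against 1.85% of all genes as higher, and 0 were past it as lower, against 2.20%. This count of 1 was 3 with a pseudocount of 0.1 FPKM, 4 by the upper quartile and 6 by the sum of all entries but the milk protein genes. S100A9 (log2 ratio 1.99, 4.08-fold) and S100A10 (1.98, 4.01-fold) were just outside the limit and S100A11 was 3.64-fold higher, while S100A14 was back near its first level, 23.9 against 28.2 FPKM.

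Within the Jersey breed, the calgranulins began high and differed less from D15 to D90. S100A12 was 1.40-fold higher, S100A8 was 1.29-fold lower, and S100A9 stood at 994 against 1001 FPKM, a difference that changed sign under both rescalings. S100A10 and S100A11 were 2.14-fold and 2.09-fold higher and S100A4 2.25-fold lower. The epithelial genes showed the widest differences of the 9 genes between these days: S100A2 was 14.2-fold lower and S100A14 24.3-fold lower at D90, the 2 genes past the limit, against 3.78% of 11080 genes as lower, with 0 as higher, against 2.98%. S100A1 was 9.03-fold lower, from 2.21 to 0.245 FPKM.

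From D90 to D250 in Jersey cattle the calgranulins were higher and the other 6 genes lower, though S100A14 and S100A1 differed little in FPKM. S100A9 was 2.98-fold, S100A8 2.38-fold and S100A12 1.77-fold higher, while S100A10 was 2.06-fold and S100A4 and S100A11 each 1.64-fold lower. S100A2 was 1.44-fold lower, and S100A14 hardly differed, at 1.95 against 2.10 FPKM. S100A1, at 0.108 against 0.245 FPKM, was under 1 FPKM in both groups and so was not compared. None of the genes compared was past the limit, against 3.72% of all genes as higher and 0.466% as lower. Over the whole span from D15 to D250, S100A9 was 2.96-fold, S100A12 2.49-fold and S100A8 1.84-fold higher, all short of the limit, and 0 of the 9 were past it as higher, against 9.17%. S100A2 was 20.6-fold lower and S100A14 26.1-fold lower, 2 of 9 where 3.42% of all genes were past the limit as lower. S100A4 was 3.68-fold lower, with a log2 ratio of -1.88 just outside it that passed it under both rescalings.

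**Figure D4:**
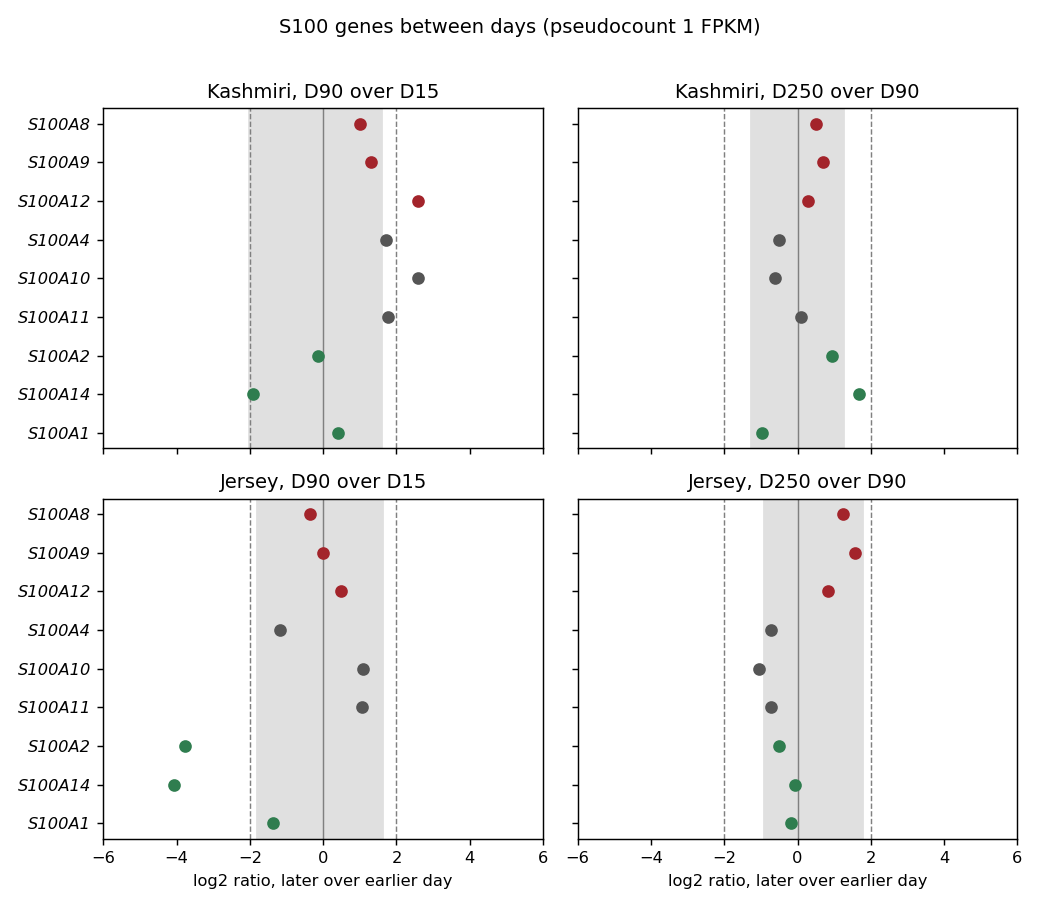
Log2 ratio of the later over the earlier day for the 9 S100 genes, D90 over D15 on the left and D250 over D90 on the right, Kashmiri above and Jersey below, with a pseudocount of 1 FPKM, dashed lines at the limit of 2 and a grey band from the 5th to the 95th percentile of all genes compared. S100A12 and S100A10 lie right of the limit in Kashmiri from D15 to D90, at 2.59 each, and S100A2 and S100A14 far left of it in Jersey, at -3.79 and -4.07.

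Set side by side, the medians over the days gave each set its own pattern. For the calgranulins the median log2 ratio was 1.29 from D15 to D90, 0.51 from D90 to D250 and 1.99 from D15 to D250 in the Kashmiri breed, and -0.01, 1.25 and 1.31 in the Jersey breed. For the 6 others it was 1.06, -0.20 and 1.01 in Kashmiri and -1.27, -0.61 and -1.71 in Jersey cattle. The medians of all genes were -0.01, 0.03 and -0.04 in Kashmiri and -0.07, 0.15 and 0.07 in Jersey cattle. Among the S100 medians, 2 changed sign under a rescaling: the Jersey value of -0.01 for the calgranulins became 0.13 or 0.24, and the Kashmiri value of -0.20 for the others became 0.45 when rescaled to the sum of all entries but the milk protein genes. The medians of all genes lay close to 0, and most of them changed sign too.

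Markers of neutrophils and macrophages were, like the calgranulins, higher in Jersey than in Kashmiri cattle at D15 and D90, and those of neutrophils also at D250. Of 12 neutrophil markers, 8 were found and 7 reached 1 FPKM. CXCR1, CXCR2, FPR1 and FCGR3A had no entry, and MMP8, a granule collagenase of neutrophils, was below 0.1 FPKM in all groups and listed at 0 in 3. Their sum was 95.9, 165 and 166 FPKM on D15, D90 and D250 in the Kashmiri breed and 883, 1485 and 4568 FPKM in Jersey cattle. All 7 were past the limit as higher in Jersey at D15, and 6 of 7 at D90 and at D250, against 6.45%, 6.58% and 10.9% of all genes, with medians of 3.42, 2.92 and 4.80. The sum of the 10 macrophage and monocyte markers was 109, 483 and 491 FPKM in Kashmiri and 1014, 2145 and 1852 FPKM in Jersey cattle, and 7, 4 and 1 of the 9 that reached 1 FPKM were past the limit as higher in Jersey on these days, against the same shares of all genes, with medians of 3.77, 1.93 and 0.10. The macrophage count at D250, 1 of 9, was near the share of all genes. The part of these markers in the calgranulin values was not tested.

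Neither marker sum kept a fixed relation to the calgranulin sum. The calgranulin sum over the neutrophil marker sum was 1.06, 2.30 and 3.05 in Kashmiri and 4.83, 3.06 and 2.19 in Jersey cattle, so it was higher at each later day in one breed and lower at each later day in the other. Over the macrophage marker sum it was 0.931, 0.787 and 1.03 in Kashmiri and 4.21, 2.11 and 5.41 in Jersey cattle. Between D90 and D250 in Jersey cattle, when the calgranulins were higher, the neutrophil markers had a median log2 ratio of 0.45 and the macrophage markers one of -1.39. CSF3R, the granulocyte colony-stimulating factor receptor, was the highest neutrophil marker in every group and so weighed most in that sum. It stood at 53.9, 61.6 and 57.2 FPKM in Kashmiri and at 310, 469 and 2549 FPKM in Jersey cattle. In Kashmiri cattle it was almost level, while S100A8 was 2.91-fold higher at D250 than at D15. Of the macrophage markers, CD68 had the highest mean and stood at 11.4, 281 and 268 FPKM in Kashmiri and 169, 1211 and 996 FPKM in Jersey cattle. CD14, a co-receptor for bacterial lipopolysaccharide on monocytes and macrophages, stood at 51.8, 69.5 and 68.3 FPKM in Kashmiri and 330, 536 and 636 FPKM in Jersey cattle. From D90 to D250 in Jersey cattle, 7 of 9 macrophage markers were lower, 3 of them past the limit, against 0.466% of all genes. CD14 was among the 2 that were higher.

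**Figure D5:**
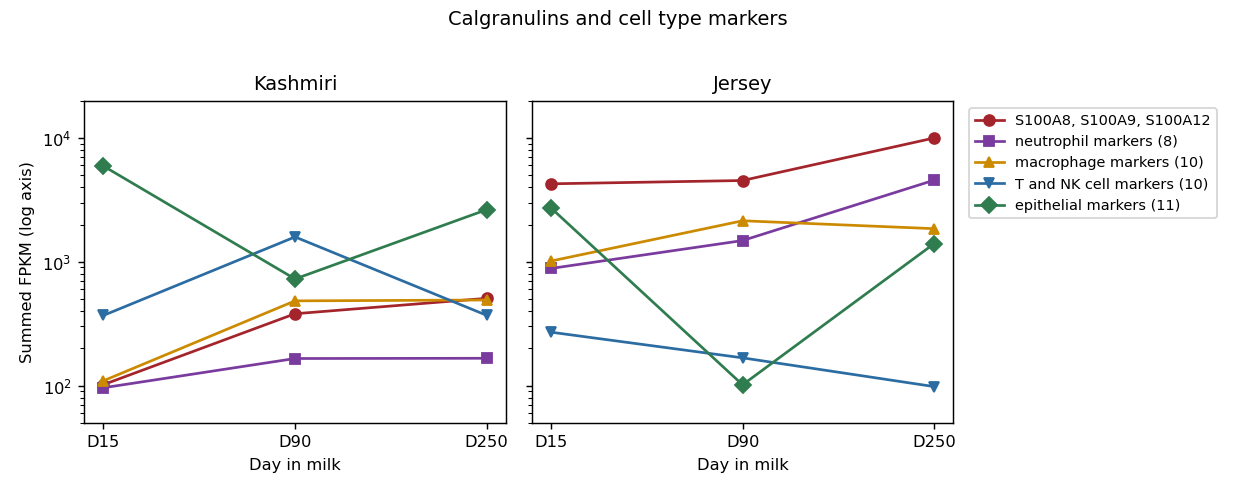
Summed FPKM on a log axis of the 3 calgranulins and of the markers of neutrophils (8 genes), macrophages (10), T and NK cells (10) and epithelium (11), Kashmiri on the left and Jersey on the right, with D15, D90 and D250 at even spacing and 1 group value per point. In Jersey the calgranulin line is the highest on each day, from 4267 to 10014 FPKM, while in Kashmiri it runs close to the macrophage line, from 102 to 507 FPKM.

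Lymphocyte markers did not follow the calgranulins. The 10 T and NK cell markers summed to 369, 1588 and 369 FPKM in Kashmiri and to 269.9, 167 and 98.0 FPKM in Jersey cattle, with 7 of 9 past the limit as lower in Jersey at D90, against 5.17% of all genes, and 0 past it as higher, against 6.58%. The 6 B cell markers summed to 78.0 FPKM or less in each group, highest in Kashmiri at D90. Red blood cell markers summed to less than 1 FPKM in every group.

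The epithelial markers moved with S100A14 and S100A2 on part of the days. Their sum was 5940.5, 726 and 2638 FPKM in Kashmiri and 2726, 101 and 1404 FPKM in Jersey cattle. From D15 to D90, 6 of 11 in Kashmiri and 9 of 11 in Jersey were past the limit as lower, against 5.16% and 3.78% of all genes, with medians of -2.37 and -3.74. S100A14 was lower in both breeds and S100A2 in Jersey, while S100A2 in Kashmiri hardly differed, at 76.8 against 84.7 FPKM. From D90 to D250 they were higher in both breeds, with medians of 1.50 and 1.44, and in Kashmiri cattle S100A14 was too, at 23.9 against 6.73 FPKM. In Jersey cattle it was not, as S100A14 stood at 1.95 against 2.10 FPKM and S100A2 at 20.0 against 28.9 FPKM, while 10 of the 11 epithelial markers were above their D90 value. Between the breeds at D15 the 2 went apart from the markers. Of the 11 epithelial markers, 9 were lower and 2 higher in Jersey, with a median of -0.75, while S100A2 and S100A14 were higher in Jersey. At D90 and D250, 10 and 11 of the markers were lower in Jersey, as were S100A2 and S100A14. S100A14 over KRT18 ranged from 0.433 (Jersey, D250) to 2.07 (Kashmiri, D250). The 8 basal and myoepithelial markers summed to between 13.04 FPKM (Jersey, D90) and 85.05 FPKM (Jersey, D15), and S100A2 over the basal keratin KRT5 ranged from 6.63 (Jersey, D250) to 61.8 (Jersey, D15). The part of the epithelial markers in the S100A2 and S100A14 values was not tested.

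The receptors of the S100 proteins were followed by a list of 5 genes, of which CD36 had no entry. AGER, the receptor for advanced glycation end products and for S100A12, stood at 49.3, 139.9 and 68.2 FPKM in Kashmiri and 143, 259 and 911 FPKM in Jersey cattle. TLR4, a receptor of calprotectin and of lipopolysaccharide, stood at 5.47, 9.45 and 20.7 FPKM in Kashmiri and 40.1, 143 and 337 FPKM in Jersey cattle, with no overlap of the breeds. ALCAM stood at 3.64 to 6.77 FPKM in Kashmiri and at 5.77, 49.1 and 42.8 FPKM in Jersey cattle. BSG, also named CD147 and a receptor of S100A9, did not separate the breeds, at 229.6, 161 and 102 FPKM in Kashmiri and 236, 162 and 98.9 FPKM in Jersey cattle. Of the 4, 1 was past the limit as higher in Jersey on D15, 2 on D90 and 3 on D250, against 6.45%, 6.58% and 10.9% of all genes, and 0 were past it as lower, against 2.12%, 5.17% and 1.37%.

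Of the 7 intracellular partners of S100 proteins, all were found, and 2 were past the limit as higher in Jersey at D15, against 6.45% of all genes, with 0 at D90 and at D250, near the 6.58% and 10.9% of all genes. Those were ANXA1, the partner of S100A11, at 638 against 57.1 FPKM, and AHNAK, a scaffold protein that binds the S100A10 and ANXA2 complex, at 34.8 against 6.99 FPKM. ANXA1 stood at 215 and 231 FPKM at D90 and D250 in Kashmiri and at 658 and 795 FPKM in Jersey cattle, and its quotient over S100A11 ranged from 0.338 to 0.928. ANXA2 stood between 301 and 636 FPKM in all groups, a narrower span than that of S100A10, and its quotient over S100A10 ranged from 0.862 (Kashmiri, D90) to 5.86 (Kashmiri, D15). MYH9, the non-muscle myosin bound by S100A4, stood between 63.1 and 129.6 FPKM, with its highest value in Jersey at D250, where S100A4 was at 545 FPKM. ANXA11, CACYBP and SUGT1 were between 15.7 and 77.0 FPKM in all groups, and none of the 3 was past the limit between the breeds.

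The gene most like S100A8 over the 6 groups was TREM1, with a Pearson r of 0.997 of log2(FPKM + 1). TREM1 amplifies inflammatory signals in myeloid cells and is one of the neutrophil markers listed above. Next were ALAS1 (0.996), the first enzyme of heme synthesis, and TPCN2 (0.996), an endolysosomal channel. Those most like S100A12 were SLC11A1 (0.999), a metal transporter of the phagosome, VSTM1 (0.994) and SLC7A7 (0.993). Of 4543 genes with a mean of at least 10 FPKM and no value at 0, 147 had an r of 0.95 or more with S100A8 and 125 with S100A12. The points share the breed difference, and 6 group values are few, so these figures are descriptions.

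S100A4 was most like PYCARD (r = 0.989), the adaptor protein of inflammasomes, CKB (0.986) and BAX (0.978). S100A11 was most like SPG21 (0.992), an entry joining CLEC4A and CLEC6A (0.991) and PPT1 (0.990), a lysosomal thioesterase. S100A14 was most like ATIC (0.981), WFDC2 (0.978), a secreted epithelial protein, and STRA13 (0.975). The number of genes at an r of 0.95 or more was 22 for S100A4, 45 for S100A11 and 10 for S100A14. Among the S100 genes themselves, r was 0.995 for S100A8 with S100A9, 0.965 for S100A8 with S100A12, 0.933 for S100A10 with S100A11 and 0.930 for S100A2 with S100A14, while S100A8 with S100A14 gave -0.41, again over 6 group values.

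In a RefSeq gene table of another cattle assembly, 8 of the 10 genes were matched by symbol, all on chromosome 3. Their order there was S100A1, S100A14, S100A2, S100A4, S100A8, S100A9, S100A11 and S100A10, with S100A13, S100A16, S100A3 and S100A5 between them. S100A6 and S100A12 were not matched in that table.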

How the data were processed

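RNA from KRT18-captured milk cells of Kashmiri and Jersey cows was sequenced by the authors from stranded poly-A libraries. They trimmed the reads, aligned them to the bovine genome (the submitters' processing notes name Bowtie2 and UMD3.1) and ran Cufflinks and Cuffdiff to obtain gene levels. With Cuffdiff they also called genes that differed between days and between breeds, and those calls are not given here. The deposited values are FPKM from Cuffdiff, 1 pooled value per gene for each of 6 groups, with no value per sample. Columns named for local cattle were taken as Kashmiri, the only breed in the labels other than Jersey. The labels give 17 samples, with 2 for Jersey at D90. The paper describes 3 cows per breed, sampled on each of the 3 days. That is 1 sample more than the labels for Jersey at D90, and whether the additional library entered that value is unknown. By the paper the days are thus repeated samples of the same cows, and 1 cow could weigh on every day of its breed. The labels put all samples of Jersey D250 and Kashmiri D90 in lactation 2 and mix lactations 2 and 3 in the other groups, whereas the paper puts all cows in lactation 3, so lactation number is partly mixed with breed and day. FPKM of short transcripts, such as those of S100 genes, depends on the effective length Cufflinks assigns, and the effect of this was not tested.

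The values hold 61264 entries, 25121 of them named. Where a name occurred more than once, the highest entry by mean over the groups stood for it, and joined names were searched by part. The 9 comparisons (3 pairs of days in each breed, and the breeds on each day) used log2 ratios with a pseudocount of 1 FPKM, a limit of 2 and at least 1 FPKM in either group, without tests. Alternatives were a pseudocount of 0.1 FPKM, a limit of 1, no lower limit on FPKM, all entries of a name summed, each S100 gene as a share of the S100 sum, and rescaling by the upper quartile or to the sum of all entries but the milk protein genes. Counts were taken as unmoved up to a factor of 1.5, and log2 values up to 0.58 with no change of sign.

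Named in the text are the S100 genes, every found gene of the receptor, partner and other S100 lists, counts and at most 4 of the highest genes of each other list, and the 3 genes most like S100A8, S100A12, S100A4, S100A11 and S100A14. Beyond this rule, KRT18 and KRT5 serve as denominators of quotients, and absent or nearly absent markers are named. KRT18 is also given as the capture gene, and the genes of the paper's purity check are named. S100A13, S100A16, S100A3 and S100A5 are also named for their place in the gene table. The members and lists were chosen with earlier results of these data known. The code was tested on simulated data. Calculations were run in Python 3.11.15 with pandas 2.3.3 and numpy 2.4.6, and plots were drawn with matplotlib 3.10.9. The RefSeq table (assembly NIAB-ARS_B.indTharparkar_mat_pri_1.0) served only for names and gene order, as it is not the build of the values. Its start positions were used only to put the genes in order, and no sequence was used here.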

Additional observations from a re-analysis of the deposited data

Results flagged for a closer look

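S100A4 stood out because its log2 ratios over the days were at least 1 in size and opposite in the breeds. From D15 to D90 its log2 ratio was 1.71 in Kashmiri and -1.17 in Jersey cattle, a Jersey minus Kashmiri difference of -2.88. From D15 to D250 the ratios were 1.21 and -1.88, a difference of -3.09. In FPKM, S100A4 went from 116 to 382 and 269 in Kashmiri and from 2007 to 893 and 545 in Jersey cattle, so the breeds were 17.3-fold apart at D15 and 2.02-fold apart at D250. With 1 value per group, the difference between the breeds was not tested, and 1 cow in the Jersey group of D15 could carry it. S100A2 also had opposite ratios from D15 to D250, 0.81 in Kashmiri and -4.30 in Jersey cattle, but the Kashmiri ratio was under 1, and this difference was not tested either.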

How the results depend on the processing

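With 1 pooled value per group, leaving out a sample was not run, and counting error and the spread between cows are unknown. No paired analysis was possible because the values carry no replicate number. Summing all entries of a name left the counts and medians of the S100 genes within the margins, and so did dropping the lower limit on FPKM for the counts.

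The number of S100 genes past the limit moved as follows. Rescaled to the sum of all entries but the milk protein genes, it was 4 in place of 2 for Kashmiri D90 over D15, 1 in place of 0 for D250 over D90 and 6 in place of 1 for D250 over D15. For the last of these it was 4 by the upper quartile and 3 with a pseudocount of 0.1. A log2 limit of 1 gave 7, 1 and 6 for these 3 comparisons, 6, 3 and 6 for the same days in Jersey cattle, and 8 between the breeds at D90.

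The median of the calgranulins moved, on rescaling to that sum, to 1.15 (Kashmiri, D250 over D90), 2.93 (Kashmiri, D250 over D15) and 4.0 (breeds, D250). In Jersey from D15 to D90 it changed sign, from -0.01 to 0.13 by the upper quartile and 0.24 by the sum. The median of the other 6 changed sign from -0.20 to 0.45 in Kashmiri (D250 over D90) and moved to 1.97 (D250 over D15) by the sum. With a pseudocount of 0.1 it was -1.96 and -2.68 in Jersey (D90 and D250 over D15) and -1.29 between the breeds at D250. As a share of the S100 sum, the D15 breed ratios of S100A10, S100A11 and S100A2 changed sign from 2.01, 2.02 and 2.27 to -1.73, -1.74 and -1.49. The causes of these shifts were not tested.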

Other observations

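Of 12 other S100 family genes, 8 were found and 5 reached 1 FPKM. S100B, known from glia, fat cells and melanocytes, was the highest of them, at 316, 104 and 404 FPKM on D15, D90 and D250 in Kashmiri and 102, 8.44 and 219.9 FPKM in Jersey cattle. It was lowest at D90 in both breeds and lower in Jersey than in Kashmiri cattle on each day, the reverse of the calgranulins. The epithelial markers were lowest at D90 too, in both breeds. S100A13, which takes part in the release of FGF1, stood at 45.3, 88.6 and 20.7 FPKM in Kashmiri and 64.3, 9.996 and 4.53 FPKM in Jersey cattle, 8.86-fold lower in Jersey at D90. S100A16 stood at 6.32, 1.67 and 4.18 FPKM in Kashmiri and 6.66, 0.337 and 0.598 FPKM in Jersey cattle, so its Jersey values at D90 and D250, like those of S100A14, were below every Kashmiri value. S100A5 and the S100P-binding protein gene S100PBP stayed between 1.36 and 7.39 FPKM. S100A3 and S100G stayed below 1 FPKM, S100Z was listed at 0 in all groups, and S100A7, S100A7A, S100A15 and S100P had no entry. Between the breeds, 0 of the 5 were past the limit as higher in Jersey on any day, and 2, S100B and S100A13, were past it as lower at D90. The shares of all genes were 6.45%, 6.58% and 10.9% as higher on D15, D90 and D250 and 5.17% as lower at D90, so 0 of 5 is near them.

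Neutrophil granule and antimicrobial genes were only partly covered, as 6 of 14 were found. LYZ, which encodes lysozyme, stood at 11.4, 86.5 and 139.9 FPKM in Kashmiri and 56.6, 271 and 462 FPKM in Jersey cattle, higher at each later day in both breeds. The early granule genes MPO and ELANE reached at most 2.80 and 16.5 FPKM, both in Jersey at D90, far below the calgranulins. Between the breeds, 1 gene was past the limit as higher in Jersey on each day, of 6 compared at D15, 3 at D90 and 4 at D250, against 6.45%, 6.58% and 10.9% of all genes. It was LYZ at D15 and ELANE at D90 and D250. Of 9 epidermal and squamous genes, 3 were found: SFN stood between 3.38 and 22.7 FPKM and TGM1 at 4.27 FPKM or less, and TGM3 stood between 51.8 and 818 FPKM in 5 groups and was listed at 0 in Jersey at D250.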
